A study of Mus musculus with 6 samples.

Results

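Cacna1c, Atp2a2, Camk2d, Jph2 and Fkbp1b, 5 genes of the machinery that moves calcium into, out of and within muscle cells, were measured by RNA sequencing in 6 mouse libraries. The design set 3 control libraries, labelled wild type, against 3 of MIRI, short for myocardial ischemia-reperfusion injury, where the blood supply of the heart is stopped and then restored. All came from C57BL/6 mice, 21 days old according to the design text, and were made from total RNA with a TruSeq kit. The labels named the retina, the intervertebral disc and the heart muscle as the source in different fields, so no tissue is named here. File names call the MIRI libraries mutant, and the genotype field holds the injury, so a genotype and the injury cannot be told apart. The sources used here give no allele, sex, batch or time after injury. They also do not say that the 3 libraries of a group were separate animals, so a p-value measures the spread between these libraries, which may be technical.

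The 5 genes were chosen by name and found by position. Each line of the deposited count table, called a row below, carries a gene name and a set of intervals, and the intervals were intersected with GENCODE M21 exons on GRCm38. Cacna1c was the sum of the rows Cacna1c and Gm18981, and Camk2d the sum of Gm43322 and Gm43751. Atp2a2 was the row Pptc7, Jph2 the row R3hdml and Fkbp1b the row Gm6682. These are 7 of 53509 rows and 5 of 12269 genes that had a row by position. All 5 were among the 6152 genes that passed the low-count filter and were tested.

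In heart muscle each beat rests on calcium that enters the cell, is released from an inner store and is pumped back. Cacna1c encodes the pore of the L-type calcium channel, which opens on depolarization and lets calcium in from outside. Jph2 encodes junctophilin 2, which holds the surface membrane close to the sarcoplasmic reticulum, the calcium store of the cell. Fkbp1b encodes FKBP12.6, a small protein bound to the ryanodine receptor, the release channel of that store. Atp2a2 encodes the SERCA2 pump, which returns calcium to the store. Camk2d encodes the delta chain of the calcium- and calmodulin-dependent kinase CaMKII, which phosphorylates several of these proteins. SERCA2 and CaMKII delta are made in many other cell types as well.

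The rows covered different and mostly small parts of the genes. Cacna1c (ENSMUSG00000051331.15) lies at chr6:118587240-119196418 on the minus strand, and its rows held 1762 bp of exon, 8.32% of the gene's exon bases, of which 785 bp were coding. Atp2a2 (ENSMUSG00000029467.15, chr5:122453513-122502225, minus strand) was covered over 1102 bp, 18.1% of its exon bases, all of them coding. Camk2d (ENSMUSG00000053819.16, chr3:126596302-126846326, plus strand) was covered over 4255 bp of exon, with 1 coding base. Most of that was the end of the gene, in the row Gm43751. Jph2 (ENSMUSG00000017817.11, chr2:163336242-163397993, minus strand) was covered over only 119 bp of noncoding exon, 2.80% of its exon bases. Fkbp1b (ENSMUSG00000020635.8, chr12:4833174-4841591, minus strand) was covered over 342 bp of noncoding exon, 33.5%. Levels of different genes are therefore not compared.

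**Figure D1:**
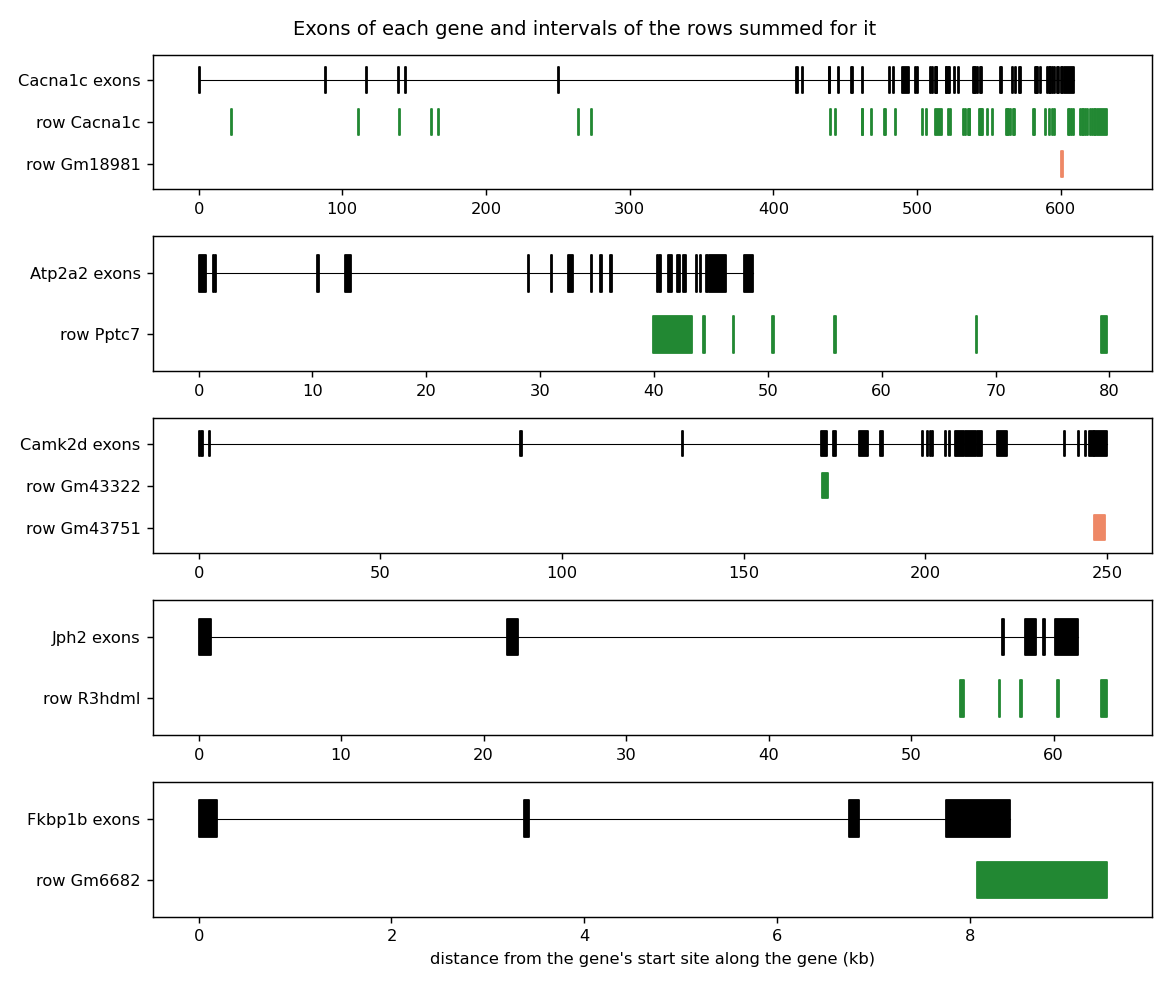
Exons of each gene (black, joined by a line) and the intervals of the rows summed for it (green, and orange for a second row), against distance from the gene's start site in kb, in the direction of transcription. The narrowest bars are widened to be visible. Few intervals coincide with exons, and some intervals of the rows Cacna1c, Pptc7, R3hdml and Gm6682 lie past the end of the gene.

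The 3 exons below lay whole within a row, and they are shown so that the bases counted can be compared with those of the nearest relative of the gene. They are GENCODE M21 transcript sequence on GRCm38, read 5′ to 3′ on the minus strand. Capitals mark bases that differ from, or do not align with, the closest paralog of the exon, which was Cacna1d for the Cacna1c exon and Atp2a1 for the Atp2a2 exons. The Cacna1c exon shown is chr6:118604437-118604564, and the Atp2a2 exons are chr5:122459448-122459650 (a) and chr5:122459976-122460196 (b), all of them coding. Other coding exons that lay whole within a row are not shown. Among them, Cacna1c exon chr6:118683332-118683452 was closest to Cacna1f, with 27 of its 121 bases aligned and the same. Bases that did not align were counted as different for every exon, so such counts are not an identity over the whole exon.
Cacna1c exon: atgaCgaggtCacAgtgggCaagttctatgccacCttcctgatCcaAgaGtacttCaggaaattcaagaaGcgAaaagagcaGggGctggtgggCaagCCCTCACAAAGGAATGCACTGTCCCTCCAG
Atp2a2 exon a: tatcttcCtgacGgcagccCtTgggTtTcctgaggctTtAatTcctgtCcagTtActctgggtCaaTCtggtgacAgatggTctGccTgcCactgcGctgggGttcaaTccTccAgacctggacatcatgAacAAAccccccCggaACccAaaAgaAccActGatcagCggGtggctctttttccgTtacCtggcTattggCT
Atp2a2 exon b: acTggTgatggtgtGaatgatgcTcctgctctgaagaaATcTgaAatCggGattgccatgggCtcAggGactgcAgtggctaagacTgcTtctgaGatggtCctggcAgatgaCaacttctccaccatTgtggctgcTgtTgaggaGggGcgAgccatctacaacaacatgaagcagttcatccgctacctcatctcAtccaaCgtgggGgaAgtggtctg
The Cacna1c exon of 128 bp differed from, or did not align with, Cacna1d at 44 bases, with most of the capitals at its 3′ end. Exon a of Atp2a2 (203 bp) differed from Atp2a1 at 44 bases, with no identical run longer than 15. Exon b (221 bp) differed at 30 bases and held an identical run of 44. Few reads lay in the rows given to the relatives by position. Those given to Cacna1d held 0 to 3 counts per library, and those given to Atp2a1 had 2.04 to 5.38 CPM (counts relative to the library's total, as CPM is used throughout). Such rows may cover other parts of the relatives. Whether reads of the relatives were counted for Cacna1c or Atp2a2 was not tested. For Camk2d, Jph2 and Fkbp1b the covered exon was noncoding, and no sequence is shown.

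Libraries held 6859481 to 9250952 counts, so that 1 count was 0.108 to 0.146 CPM. Control 2 and MIRI 1 stood apart from the other 4 libraries, with chi-square values of 13.3 to 19.6 per degree of freedom against each of them. Among the other 4 these values ran from 4.31 to 7.46, and between control 2 and MIRI 1 the value was 9.37. Markers of heart muscle cells were close to 0. Of 14 listed, 4 had a row, Myh6 had no count in any library, and the 4 summed to 0.685 to 1.49 CPM in control and 0.542 to 1.35 CPM in MIRI. Skeletal muscle markers (7 of 13, Mybpc1 at 0) summed to 2.42 to 6.998 CPM over the 6 libraries, photoreceptor markers (6 of 14) to 13.9 to 26.1 CPM, and disc and cartilage markers (5 of 13) to 27.8 to 35.2 CPM. Most of the photoreceptor sum was Opn1sw (mean 14.3 CPM), and most of the disc and cartilage sum was Col9a2 (mean 19.9 CPM). Fibroblast markers (9 of 11) summed to 59220 to 77110 CPM in control and 60570 to 82170 CPM in MIRI. Endothelial markers (7 of 13, none at 0) summed to 320 to 803 CPM in control and 173 to 219 CPM in MIRI. Most of the MIRI sum was Eng (138 to 211 CPM), whose groups overlapped. Pecam1, Tek, Tie1, Vwf, Emcn and Robo4 were lower in MIRI without overlap, as 5.48% of all genes tested were. Pecam1 had 74.8 to 355 CPM in control and 1.75 to 19.1 CPM in MIRI. No endothelial marker passed the threshold of 0.05 on the edgeR adjusted p, and their part in the results below was not tested. The 5 genes were thus measured in RNA in which the markers of heart muscle that had a row were close to 0. A row can hold only a small part of a gene, so such levels do not show that a cell type was absent.

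None of the 5 genes differed between MIRI and control past the threshold of 0.05 on the adjusted p. The test was edgeR's quasi-likelihood test with Benjamini-Hochberg adjustment over all 6152 genes, in which 0% of all genes tested were called. The smallest adjusted p over all genes was 0.0846. DESeq2 and limma-voom called none of the 5 either. Of the 5, 1 (Cacna1c) had an unadjusted p under 0.05, as 4.47% of all genes tested did. The groups overlapped in CPM for all 5, while they did not overlap for 8.91% of all genes tested. Estimates were above 0 for Cacna1c, Fkbp1b and Atp2a2 and below 0 for Camk2d and Jph2, and 52.8% of all genes tested were above 0.

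**Figure D2:**
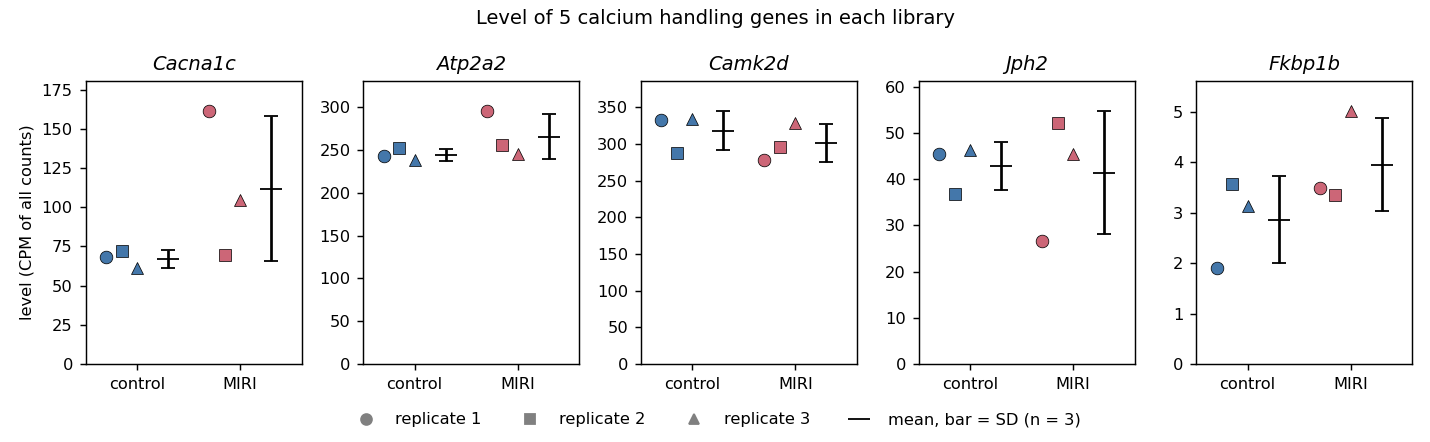
Level of each gene in CPM of all counts (vertical axis, from 0, a separate scale for each gene) in the 3 control and 3 MIRI libraries, with the mean and SD beside them and replicates by symbol. Cacna1c runs from 61.1 to 72.2 CPM in control and from 69.4 to 161 CPM in MIRI, and the groups overlap in all 5 genes.

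Cacna1c, the channel through which calcium enters, had the largest estimated difference of the 5. Its level was 68.0, 72.2 and 61.1 CPM in controls 1 to 3 and 161, 69.4 and 105 CPM in MIRI 1 to 3. MIRI 1 and MIRI 3 lay above every control, while MIRI 2 lay inside the control range. The mean was 67.1 ± 5.60 CPM (SD, n = 3) in control and 112 ± 46.3 CPM (SD, n = 3) in MIRI, and the coefficient of variation was 8.34% in control and 41.5% in MIRI. The log2 fold change was 0.73 ± 0.25 (SE, 95% interval 0.16 to 1.31), with an edgeR adjusted p of 0.894. A two-sided exact permutation test of the CPM gave p = 0.2, where the smallest p that 3 against 3 libraries allow is 0.1.

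The size of the Cacna1c estimate rested on a few libraries. It was 0.41 without MIRI 1 and 0.97 without MIRI 2, and in edgeR the adjusted p was 0.957 and 0.387. Without control 2 and MIRI 1 together, the libraries that stood apart, it was 0.45 ± 0.19 (SE), with an edgeR adjusted p of 0.885. Smooth muscle also uses this channel, and 3 of its 9 listed markers had a row, none of them at 0. They summed to 26.7 to 29.1 CPM in control and 33.1 to 50.2 CPM in MIRI. Of the 3, only Actg2 had groups that did not overlap (1.63 to 5.61 CPM in control and 6.86 to 16.3 CPM in MIRI), while Myh11 and Mylk overlapped. Of all genes tested, 3.43% were likewise higher in MIRI without overlap. The highest marker sum was in MIRI 2, which had the lowest Cacna1c level of its group. The part of smooth muscle RNA in the Cacna1c values was not tested, and in such bulk RNA a change in the number of cells of a type and a change in RNA per cell cannot be told apart.

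Jph2, which holds the junctions between the surface membrane and the store, had near-equal means in the groups, 42.9 ± 5.25 CPM in control and 41.5 ± 13.3 CPM in MIRI (SD, n = 3 each). It had 45.4, 36.8 and 46.4 CPM in controls 1 to 3 and 26.6, 52.2 and 45.5 CPM in MIRI 1 to 3. MIRI 1 was the lowest and MIRI 2 the highest of the 6 libraries, so the MIRI values enclosed all 3 controls. The log2 fold change was -0.04 ± 0.26 (SE, 95% interval -0.63 to 0.56), with an edgeR adjusted p of 0.9998. The interval holds folds from 0.644 to 1.48, so changes within that range in either direction are not excluded. Without MIRI 1 the estimate was 0.22, and without MIRI 1 and control 2 it was 0.11. Of the 1094 bp of the row R3hdml, 119 bp are Jph2 exon, 540 bp are intron and 435 bp lie outside the gene. The values are those of the whole row.

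Fkbp1b, the ryanodine receptor's small partner, had the fewest counts. There were 14, 26 and 29 counts in the controls and 26, 23 and 37 in MIRI 1, 2 and 3. This was 1.90, 3.56 and 3.14 CPM in control and 3.50, 3.35 and 5.01 CPM in MIRI. Control 1 was low and MIRI 3 high, and the other 4 libraries lay close together across both groups. The log2 fold change was 0.47 ± 0.33 (SE, 95% interval -0.30 to 1.24), with an edgeR adjusted p of 0.9998, and it was 0.25 both without control 1 and without MIRI 3. Only 342 of the 1346 bp of the row lie within the gene, and 1004 bp lie beyond its end.

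Atp2a2, the pump that refills the store, had the smallest standard error of the 5. Its level was 243, 252 and 239 CPM in controls 1 to 3 and 295, 256 and 245 CPM in MIRI 1 to 3. MIRI 1 stood above the rest, MIRI 2 was just above the highest control, and MIRI 3 lay inside the control range. The mean was 245 ± 6.89 CPM (SD, n = 3) in control and 266 ± 26.5 CPM (SD, n = 3) in MIRI. The log2 fold change was 0.12 ± 0.09 (SE, 95% interval -0.09 to 0.33), with an edgeR adjusted p of 0.9998, and the interval spans folds of 0.942 to 1.26. A two-sided exact permutation test gave p = 0.2. Without MIRI 1 the estimate was 0.07 ± 0.09 (SE).

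Camk2d, the kinase chain, had estimates below 0 in most fits. It had 333, 288 and 334 CPM in controls 1 to 3 and 278, 296 and 329 CPM in MIRI 1 to 3. Controls 1 and 3 were the highest libraries, control 2 lay among the MIRI values, and MIRI 3 was close to controls 1 and 3. The mean was 318 ± 26.1 CPM (SD, n = 3) in control and 301 ± 25.8 CPM (SD, n = 3) in MIRI. The log2 fold change was -0.07 ± 0.12 (SE, 95% interval -0.36 to 0.21), with an edgeR adjusted p of 0.9998 and a two-sided exact permutation p of 0.5. The interval spans folds of 0.779 to 1.16. Without MIRI 1 the estimate was 0.0081.

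Across libraries, 4 of the 5 genes shared their extremes. In both groups the library that stood apart, control 2 and MIRI 1, was the highest of its group for Cacna1c and Atp2a2 and the lowest for Camk2d and Jph2. In MIRI 1, log2 CPM relative to the mean of the 6 libraries was 0.88 for Cacna1c and 0.15 for Atp2a2, and -0.21 for Camk2d and -0.68 for Jph2. In control 2 the same deviations were -0.26, -0.05, -0.14 and -0.20, so that relative to all 6 libraries only Camk2d and Jph2 deviated the same way in both. Fkbp1b did not follow these libraries: its extremes were control 1 (-0.72) and MIRI 3 (0.60). With control 2 and MIRI 1 both left out, the log2 fold change was 0.45 for Cacna1c, 0.08 for Atp2a2, -0.08 for Camk2d, 0.11 for Jph2 and 0.73 ± 0.40 (SE) for Fkbp1b, all with edgeR adjusted p of 0.885 or more.

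**Figure D3:**
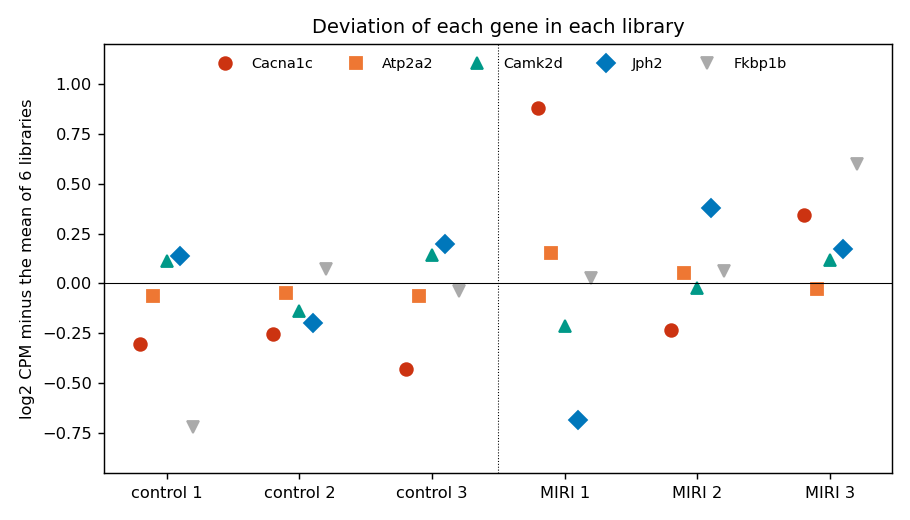
Log2 CPM of each gene minus its mean over the 6 libraries (vertical axis) in each library (horizontal axis), with controls left of the dotted line. MIRI 1 holds the highest Cacna1c value (0.88) and the lowest Jph2 value (-0.68).

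The 2 rows summed for Cacna1c had estimates close to each other. The row Cacna1c carried 90.4% of the gene's counts and had a log2 fold change of 0.72 ± 0.24 (SE), with an edgeR adjusted p of 0.884 over the 15777 rows tested. The row Gm18981, which lies wholly within the gene, had 7.18, 4.24 and 7.13 CPM in control and 15.5, 5.69 and 11.5 CPM in MIRI, and a log2 fold change of 0.80 ± 0.36 (SE). As for the gene, MIRI 1 and MIRI 3 were above all controls and MIRI 2 was not. Both rows lie on the strand of the gene, although the counting did not separate strands. Of the row Cacna1c, 949 bp are exon, 12086 bp are intron and 8829 bp lie outside the gene. The row Dcp1b, which touches 4725 bp of Cacna1c intron and exons of Dcp1b, had an estimate of 0.07 ± 0.22 (SE).

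Camk2d was overlapped by 8 rows, 6 of them wholly within the gene, and all 8 had estimates below 0, with no edgeR adjusted p below 0.9996. The row Gm43751 carried 89.9% of the counts summed for the gene and had a log2 fold change of -0.07 ± 0.14 (SE). Gm43322, with 1231 bp of noncoding exon and 381 bp of intron, had -0.13 ± 0.16 (SE). The lowest estimate of the other 6 was -0.32 ± 0.24 (SE), in Gm25501. These rows share the same libraries and are not independent of each other. In the row Ank2 the groups did not overlap, as in 8.81% of all rows tested: it had 466, 483 and 480 CPM in control and 455, 375 and 410 CPM in MIRI, with a log2 fold change of -0.20 ± 0.10 (SE). That row holds 3150 bp of Camk2d exon and 3997 bp of exons of Ank2, Gm42514 and Gm42515, so its counts do not belong to Camk2d alone.

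For Atp2a2, the rows Rad9b and Vps29 cover 731 and 676 bp of its exons, together with exons of Gm43360 and Gm43361. Their log2 fold changes were 0.06 ± 0.10 (SE) and 0.10 ± 0.10 (SE), and with them added the gene had 0.09 ± 0.10 (SE). Of the row Pptc7, 1102 bp are Atp2a2 exon, 2618 bp are intron and 999 bp lie outside the gene. It shares 1002 bp with the row Rad9b, and 251 bp of it lie on exons of Anapc7. In Jph2, the row Hnf4aos holds 45 bp of coding exon and had 26.8, 25.6 and 30.9 CPM in control and 18.6, 30.9 and 33.2 CPM in MIRI. MIRI 1 was again the lowest library, and the log2 fold change was -0.0012 ± 0.24 (SE). In the row Hnf4a, which touches 969 bp of Jph2 intron and lies mostly outside the gene, MIRI 1 was instead the highest, at 39.96 CPM against 26.4 to 31.5 CPM in the others, and the estimate was 0.19 ± 0.14 (SE). The row Gm25881, in an intron, had -0.29 ± 0.34 (SE). The rows Pptc7, Gm43322, Gm43751, R3hdml and Gm6682 lie on the opposite strand to the genes they were counted for, and reads of the 2 strands were not told apart.

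**Figure D4:**
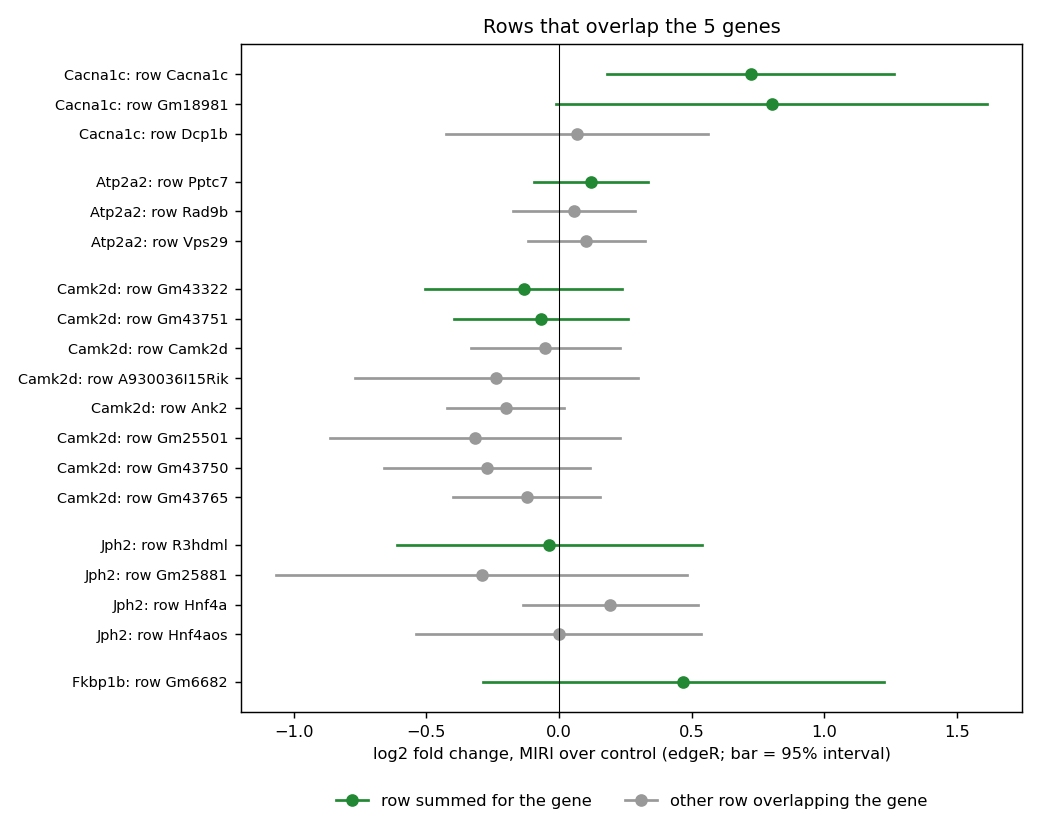
Log2 fold change of MIRI over control (horizontal axis, with its 95% interval) of each tested row that overlaps 1 of the 5 genes, green for rows summed for the gene and grey for others. All intervals except that of the row Cacna1c (0.18 to 1.26) include 0.

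Rows that carry the names of these genes lie elsewhere for 3 of them. The row Atp2a2 lies on exons of Ift81, over 408 bp, and had 17.6 ± 1.04 CPM in control and 21.2 ± 4.59 CPM in MIRI (SD, n = 3 each), with a log2 fold change of 0.27 ± 0.17 (SE). The row Fkbp1b touches 41 bp of exon, of Ubxn2a, and had -0.23 ± 0.19 (SE), against 0.47 for the gene by position. The row Jph2 lies on no exon, held 0 to 5 counts per library and was not tested. The row Camk2d overlaps its own gene, mostly in introns and with 95 bp of its exon against 3777 bp of Gm43011, and had -0.05 ± 0.12 (SE). For Fkbp1b the deposited name and the position thus gave estimates of opposite sign, and no edgeR adjusted p was below 0.9996 for these rows.

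Among other genes of calcium handling, none was called in either direction. Of 153 listed genes in 9 groups, 80 had a row by position and 65 were tested; 29 had estimates above 0 and 36 below, with a median log2 fold change of -0.04, beside 0.01 over all genes tested. An unadjusted edgeR p under 0.05 was found for 4 of the 65, Cacna1c, Casq1, Nfatc4 and Pde3a, beside 4.47% of all genes tested. Groups did not overlap for 4 genes in the higher and 3 in the lower direction, as for 3.43% and 5.48% of all genes tested. They were Casq1, Stac3, Ppp3r1 and Nfatc4, and Fkbp1a, Pde3a and Akap13, of which Casq1 and Stac3 are named here after their values were seen. The 60 tested genes other than the 5 had a median of -0.05. Values of all 65 are those of whole rows, which held from 55 bp (Saraf) to 16102 bp (Asph) of exon. Ppp3r1 had 132 bp, Akap13 175 bp and Casq1 298 bp.

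**Figure D5:**
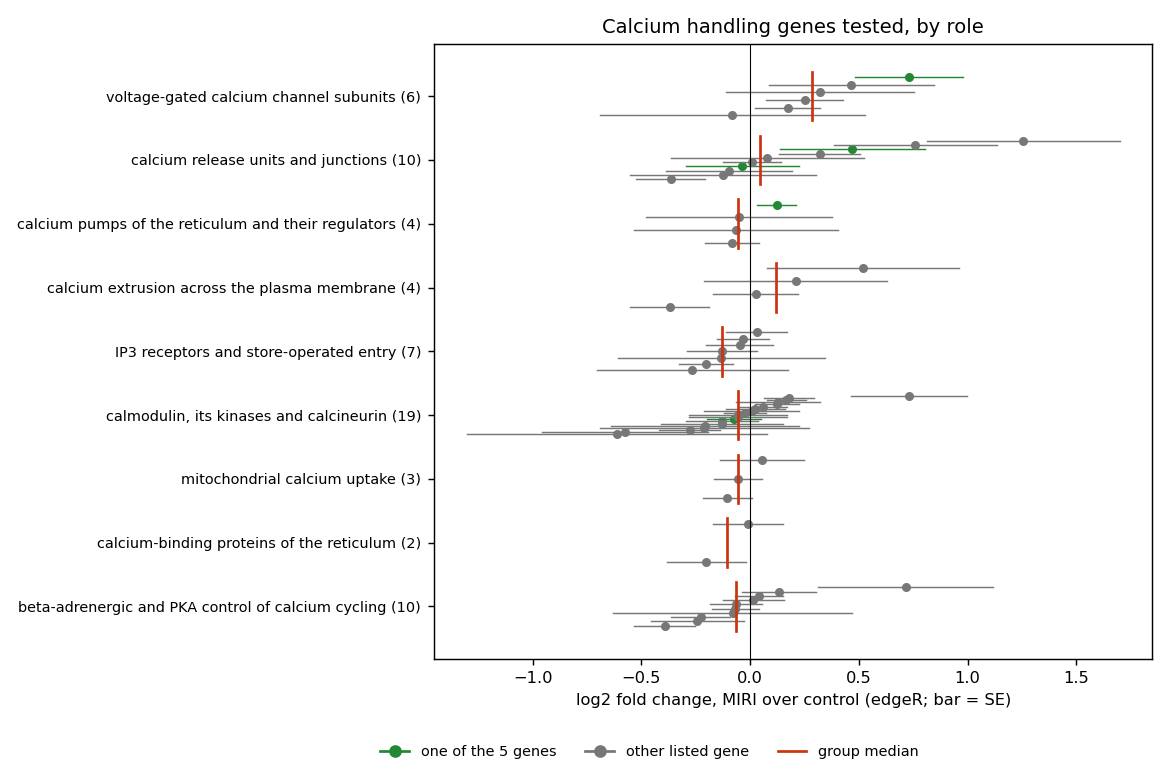
Log2 fold change of MIRI over control (horizontal axis, bar = SE) of the 65 calcium handling genes tested, by role, with the number of genes in brackets, the 5 genes in green and group medians in red. Group medians lie between -0.13 and 0.29, and 0 genes passed the threshold.

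In the group of voltage-gated channel subunits, 5 of 6 tested genes had estimates above 0, beside 52.8% of all genes tested, and the median was 0.29. The 6 include Cacna1c itself, and Cacna1b, Cacnb2 and Cacna2d2 held only 3 to 26 counts per library. Cacna2d1, an accessory subunit that carries the pore to the membrane, had 44.6, 33.95 and 35.2 CPM in control and 52.3, 34.1 and 48.6 CPM in MIRI. MIRI 1 and MIRI 3 were above the controls and MIRI 2 was within them, the order also seen for Cacna1c. Its log2 fold change was 0.25 ± 0.18 (SE), and that of Cacnb3, a cytoplasmic beta subunit, 0.17 ± 0.15 (SE). Rows of Cacna1g and Cacna1h, pores of T-type channels, held 2 to 15 counts per library and were not tested.

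The release units, to which Jph2 and Fkbp1b belong, had 6 of 10 tested estimates above 0 and a median of 0.04. Fkbp1a, which encodes FKBP12, the close relative of FKBP12.6, had 603, 959 and 685 CPM in control and 602, 544 and 586 CPM in MIRI. All MIRI libraries were below all controls, by a small margin between control 1 and MIRI 1, and the log2 fold change was -0.37 ± 0.16 (SE), with an edgeR adjusted p of 0.9998. Fkbp1a and Fkbp1b thus had estimates of opposite sign, and neither passed the threshold. Speg, a kinase of the junction, had 0.32 ± 0.19 (SE), and Tmem38b, a potassium channel of the store, -0.10 ± 0.29 (SE). Casq1, the skeletal form of the calcium buffer of the store, had the highest estimate of the list, 1.26 ± 0.44 (SE), at 0.411 to 0.973 CPM in control and 1.49 to 2.48 CPM in MIRI, with groups that did not overlap. Ryr2, the release channel to which FKBP12.6 binds in the heart, held 1 to 7 counts per library and was not tested.

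The pumps of the reticulum, the group of Atp2a2, had estimates from -0.08 to 0.12, and the genes of extrusion across the plasma membrane from -0.37 to 0.52. Among the 4 tested reticulum and Golgi pumps Atp2a2 was the only one above 0, and Atp2c1, a Golgi pump, had -0.08 ± 0.12 (SE). At the plasma membrane, the pump Atp2b1 had 138, 117 and 96.6 CPM in control and 107, 67.8 and 96.3 CPM in MIRI, with a log2 fold change of -0.37 ± 0.18 (SE). Its groups overlapped through MIRI 1. Atp2b4, a second such pump, had 0.21 ± 0.42 (SE), and Bsg, a chaperone of these pumps, 0.03 ± 0.20 (SE). The highest of the group was Slc24a3, a sodium-calcium-potassium exchanger named here after its value was seen, at 0.52 ± 0.44 (SE), with 1.37 to 2.27 CPM in control and 1.75 to 4.23 CPM in MIRI. Of Sln, which encodes the SERCA inhibitor sarcolipin, 0 to 2 counts per library were found.

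Around Camk2d, 8 of 19 tested genes of calmodulin, its kinases and calcineurin had estimates above 0, with a median of -0.05. Nfatc4, a transcription factor activated by calcineurin, had 23.6, 23.4 and 11.9 CPM in control and 41.3, 29.3 and 26.4 CPM in MIRI. All MIRI libraries were above all controls, and the log2 fold change was 0.73 ± 0.27 (SE), with an edgeR adjusted p of 0.951. Ppp3r1, the regulatory subunit of calcineurin, also had groups that did not overlap, from 24.9 to 28.7 CPM in control and from 29.45 to 30.5 CPM in MIRI, at 0.18 ± 0.12 (SE). Nfatc3 had 0.17 ± 0.09 (SE) and Mef2a, a transcription factor downstream of CaMKII, -0.28 ± 0.14 (SE).

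The remaining groups had medians from -0.13 to -0.05. Among beta-adrenergic genes 4 of 10 estimates were above 0, and Pde3a, which breaks down cAMP, had 81.1, 83.5 and 84.0 CPM in control and 61.9, 52.2 and 74.4 CPM in MIRI, with a log2 fold change of -0.39 ± 0.14 (SE) and an edgeR adjusted p of 0.943. All MIRI libraries were below all controls for Pde3a, and also for Akap13, an anchor of protein kinase A, at -0.23 ± 0.14 (SE). Among IP3 receptors and store-operated entry 1 of 7 was above 0, with Itpr1 at -0.20 ± 0.12 (SE) and Itpr2 at -0.13 ± 0.16 (SE). For mitochondrial uptake, Micu2, Smdt1 and Mcur1 had -0.11, -0.05 and 0.05, and the reticulum proteins Rcn2 and Calu had -0.20 and -0.01.

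The genes whose pattern over the 6 libraries was most like each of the 5 were found among 3869 other genes, by the root mean square difference of centred log2 CPM. For Cacna1c it was Meis1, a homeobox transcription factor gene, at 0.126, where the median gene was at 0.487. Meis1 had 28.4, 28.3 and 26.3 CPM in control and 54.6, 26.8 and 36.6 CPM in MIRI, with MIRI 1 highest, MIRI 3 next and MIRI 2 at the control level, and Nptxr followed at 0.138. For Atp2a2 the nearest were Npepps (0.0267) and Strap (0.0299), for Camk2d Adamts10 (0.0258) and Decr1 (0.0264), and for Jph2 Fam219a (0.0931) and Sept5 (0.0990). Fkbp1b had no near match at its low counts: Trim7 was at 0.208 and Crip1 at 0.223. Such nearness over 6 libraries is a description, since the same libraries set the pattern of every gene.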

How the data were processed

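Read pairs per gene name were counted by the authors with featureCounts 2.0.1 on exons, without strand, per the file headers, and the deposited whole-number counts were used. The submitters' processing notes list Bowtie 0.12.2, mm8 and mm9, and the design text names BWA, TopHat and Cufflinks. The sources used here name neither the aligner nor the build behind these counts, so the use of GRCm38 positions is an assumption. Deposited FPKM values (6 columns) were not used.

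Because names and positions of rows disagree, each row was given to the GRCm38 gene (GENCODE M21, bedtools 2.31.1) holding at least 80% of its overlapped exon bases (50 bp or more). Counts of its rows were added up. In this way a gene was found for 15409 of 53509 rows, which hold 64.9% of counts. All counts of a row go to its gene, also those from bases beyond its exons.

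CPM are per all counts of a library (6859481 to 9250952). Groups of 3 were compared with edgeR 4.0.16 in R 4.3.3 (TMM, filterByExpr, glmQLFit, glmQLFTest, two-sided, Benjamini-Hochberg over 6152 genes, threshold 0.05), tested on simulated data beforehand. Single values were compared with exact permutation tests (scipy 1.17.1), and centred log2 CPM used a prior count of 2. Alternatives were other scaling, filters, naming and tests (DESeq2 1.42.0, limma 3.58.1), a replicate block and leaving out libraries.

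The members and lists were chosen with earlier results of these data known. Named were the 5 genes and their rows, rows carrying their names, listed genes at 5 CPM or more (up to 4 a group by smallest p), and the 2 nearest genes in pattern.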

Additional observations from a re-analysis of the deposited data

How the results depend on the processing

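Counts of called genes changed with the processing, while none of the 5 genes and none of the calcium handling list was called under any alternative run. Over all genes, 9 were called higher and 50 lower with DESeq2, and edgeR without a low-count filter called 4 higher and 26 lower. With 1 library left out, the calls ran from 0 to 15 lower (15 without control 1) and 0 higher. Without control 2 and MIRI 1 together, chosen after the data were seen, 1 was higher and 0 lower. The cause was not tested.

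Cacna1c, Atp2a2 and Fkbp1b kept the sign of their estimate under all alternatives. With 1 library left out the log2 fold change ran from 0.41 to 0.97 for Cacna1c, from 0.07 to 0.16 for Atp2a2, from -0.16 to 0.0081 for Camk2d, from -0.25 to 0.22 for Jph2 and from 0.25 to 0.62 for Fkbp1b. Camk2d turned above 0 without MIRI 1, and Jph2 without MIRI 1 (0.22), control 1 (0.0045) or control 3 (0.04), and also without control 2 and MIRI 1 together (0.11). The edgeR or DESeq2 adjusted p for Cacna1c ran from 0.326 (DESeq2) to 1 over its alternatives.

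Replicate numbers are shared between the groups, but same-numbered libraries did not consistently deviate together: the correlations of their deviations were -0.17, -0.31 and 0.20. The highest correlation across the groups, 0.44, was between control 2 and MIRI 1, the libraries that stood apart. With the replicate number as a block, edgeR called 0 genes, and the log2 fold change of Cacna1c was 0.67 ± 0.23 (SE), of Atp2a2 0.12, of Camk2d -0.08, of Jph2 -0.09 and of Fkbp1b 0.49. Fkbp1b has no value under the stricter filter of 10 CPM in 3 libraries, since it did not pass, and the calcium handling list was not run on the deposited names, which do not match positions. At 14 to 37 counts, Fkbp1b has the widest standard error of the 5, and intervals for all 5 rest on 3 libraries a group.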
